A study of Saccharomyces cerevisiae with 2 samples.

Results

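The 10 genes described here encode the cytosolic translation elongation factors of budding yeast, Saccharomyces cerevisiae. They were listed by systematic name for their role, with earlier results of these data known, and all 10 were found among the 6692 rows of both count files. They are TEF1 and TEF2 (eEF1A), TEF4 and CAM1 (eEF1B gamma), EFB1 (eEF1B alpha), EFT1 and EFT2 (eEF2), YEF3 and HEF3 (eEF3) and HYP2 (eIF5A). ANB1, which encodes the other eIF5A and is not among the 10, was set beside HYP2.

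RNA was sequenced from 1 group of 2 libraries, the replicates of methionine-depleted cultures of strain yJL59a. Cells were grown with methionine in synthetic medium, washed and moved to medium that lacked it, and mRNA was captured on beads and read in pairs of 50 bases. The genotype of both libraries is given as MATa with the allele his3-11,15 and a leu2 allele. It further holds trp1-1, ura3-1, can1-100 and ade2-1, and both CDC20::MET3pr-mCherry::URA3 and CWC23::MET3pr-GFP::KanMX. These names put the MET3 promoter with a fluorescent protein at CDC20 and at the splicing factor gene CWC23. The label does not say whether that promoter drives either gene. No culture that kept methionine is in the group, so nothing below is a response to methionine.

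The libraries held 34052011 and 35367508 counts in replicates 1 and 2. Levels are given as counts and as FPKM, which here is the deposited count per kb of coding sequence, scaled by the library total to the usual FPKM unit. The median of 6007 genes with a coding length was 45.9 FPKM, and 100 of them (1.66%) had 0 counts in both libraries. The mating type of the label was at odds with its markers. The 7 a-specific genes lay between 3.92 and 11.99 FPKM, none above the all-gene median, and the 4 alpha-specific genes between 230 and 2401 FPKM, all above it. The libraries labelled MATa are therefore named by treatment only, and whether this touches any elongation factor value was not tested. The 4 methionine synthesis genes examined lay between 840 and 4776 FPKM.

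During elongation, eEF1A bound to GTP brings aminoacyl-tRNA to the ribosome, and the eEF1B complex exchanges the GDP left on eEF1A for GTP. eEF2 then drives translocation of the tRNAs and the mRNA, and in fungi the ATPase eEF3 is needed as well, being known for the release of deacylated tRNA from the exit site. eIF5A, which carries the modified lysine hypusine, aids peptide bond formation at sequences that stall the ribosome. In yeast most of these factors are encoded by gene pairs that trace back to a whole-genome duplication, and as a class they are among the most abundant proteins of growing cells.

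The carriers of aminoacyl-tRNA are TEF1 (YPR080W, chromosome XVI, 700594 to 701970, plus strand) and TEF2 (YBR118W, chromosome II, 477671 to 479047, plus strand), in the R64 reference, which is the sacCer3 build. Each is a single coding exon of 1377 bases, and both encode the same protein of 458 residues. Their coding sequences differed at 2 positions, T762C and T834C, counted from the A of the start codon with the TEF1 base first. Both changes are synonymous, at codons 254 and 278. The stretch that holds them is shown because, within the coding sequence, only reads that cover one of them can tell the copies apart. Capitals mark the differing bases.
TEF1, positions 752 to 844, chrXVI:701345-701437, plus strand: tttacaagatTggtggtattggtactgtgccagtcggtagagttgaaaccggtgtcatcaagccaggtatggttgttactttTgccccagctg
TEF2, positions 752 to 844, chrII:478422-478514, plus strand: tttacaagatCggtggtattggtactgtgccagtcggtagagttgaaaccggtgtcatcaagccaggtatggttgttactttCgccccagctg

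TEF1 had 54372 and 45483 counts, or 1160 and 934 FPKM, in replicates 1 and 2. TEF2 had 75805 and 69714 counts, or 1617 and 1431 FPKM. TEF1 was thus the lower copy in both libraries, and the values of the copies did not overlap. The log2 ratio of TEF1 to TEF2 was -0.48 in replicate 1 and -0.62 in replicate 2 (-0.55 ± 0.10, SD, n = 2). TEF1 took 41.8% of the 130177 counts of the pair in replicate 1 (95% Wilson interval 41.5% to 42.0%) and 39.5% of 115197 in replicate 2 (39.2% to 39.8%). These intervals do not overlap, so the replicates differed by more than counting error. TEF1, with a mean of 1047 ± 159.6 FPKM, ranked 214 of the 6007 genes, and TEF2, with 1524 ± 131 FPKM, ranked 151 (SD, n = 2 each). In each copy an opposite-strand reading frame of 325 codons covered 978 of the 1377 bases.

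The translocase eEF2 is encoded by EFT1 (YOR133W, chromosome XV, 575098 to 577626, plus strand) and EFT2 (YDR385W, chromosome IV, 1243230 to 1245758, plus strand). Each is 1 exon of 2529 coding bases, and the proteins of 842 residues are identical. The coding sequences differed at 4 positions, A447G, C882T, C2145T and C2364T, with the EFT1 base first, in codons 149, 294, 715 and 788. All 4 are synonymous. The 25 bases around each are shown with the differing base in capitals, since these 4 bases carry everything that separates the copies within the coding sequence.
EFT1, positions 435 to 459, chrXV:575532-575556, plus strand: agctttgggtgaAagaatcaagcct
EFT2, positions 435 to 459, chrIV:1243664-1243688, plus strand: agctttgggtgaGagaatcaagcct
EFT1, positions 870 to 894, chrXV:575967-575991, plus strand: cttcaagaaagaCgaaattccagtt
EFT2, positions 870 to 894, chrIV:1244099-1244123, plus strand: cttcaagaaagaTgaaattccagtt
EFT1, positions 2133 to 2157, chrXV:577230-577254, plus strand: agctacttacgcCggtttcttgttg
EFT2, positions 2133 to 2157, chrIV:1245362-1245386, plus strand: agctacttacgcTggtttcttgttg
EFT1, positions 2352 to 2376, chrXV:577449-577473, plus strand: gagacaagctacCggtggtcaagct
EFT2, positions 2352 to 2376, chrIV:1245581-1245605, plus strand: gagacaagctacTggtggtcaagct

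EFT1 had 7388 and 6551 counts, or 85.8 and 73.2 FPKM. EFT2 had 27831 and 26424 counts, or 323 and 295 FPKM. EFT1 was again the lower copy in both libraries, by a larger factor than TEF1. The log2 ratio of EFT1 to EFT2 was -1.91 and -2.01 (-1.96 ± 0.07, SD, n = 2). EFT1 took 21.0% of 35219 counts in replicate 1 (95% Wilson interval 20.6% to 21.4%) and 19.9% of 32975 in replicate 2 (19.4% to 20.3%). EFT1, with a mean of 79.5 ± 8.87 FPKM, ranked 2000, and EFT2, with 309 ± 19.6 FPKM, ranked 613 (SD, n = 2 each).

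The shared sequence bears on these levels directly. Of the 50-base windows within the TEF1 coding sequence, 7.53% occurred once in the genome on either strand, and the share was the same for TEF2. For EFT1 and EFT2 it was 8.06%. With windows of 150 bases, as a read pair might span, the unique shares were 18.1% for the TEF copies and 25.2% for the EFT copies. How reads that match more than 1 place were treated could not be learned from the sources used here. These give numbers of uniquely mapped reads for both libraries but not whether the counts rest on these alone. The count total lay above that number in replicate 1 and below it in replicate 2. The unit of a count is not given, so the totals cannot be set against reads directly. The part of such reads in the 4 levels above was not tested. The ratios above also assume that such reads were treated alike for both copies and were not split evenly between them. An even split would draw a ratio towards equality. With even coverage and an even split, EFT1 would hold at least 44.3% of its pair for touching 50-base windows and 33.3% for 150-base windows. For TEF1 these shares would be 43.1% and 33.0%. Which treatment applied was not tested.

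**Figure D1:**
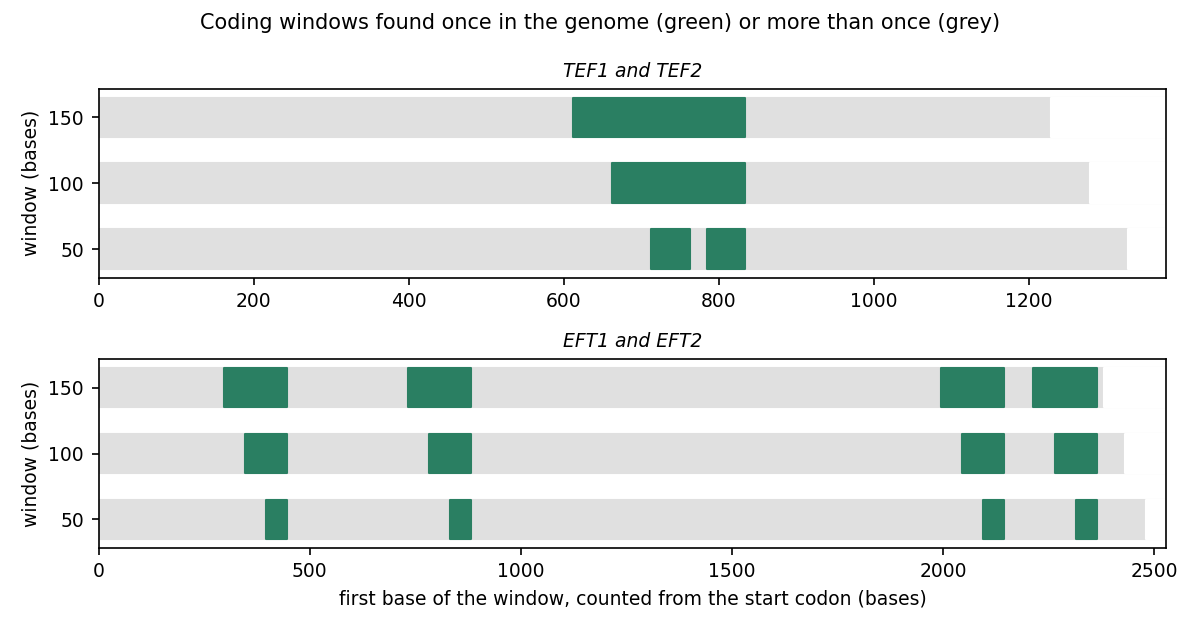
First base of each coding window (x axis, bases from the start codon) for windows of 50, 100 and 150 bases (rows), in TEF1 and TEF2 (top) and EFT1 and EFT2 (bottom). Green marks windows that occur once in the genome and grey those that occur more often, and the unique 50-base windows are those around the 2 and 4 differing bases.

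Across all genes, few unique windows went with low levels in these files. The 171 genes with under 10% unique 50-base windows had a median of 0.0928 FPKM, and 55 of them had 0 counts in both libraries. The 5614 genes with at least 90% unique windows had a median of 48.1 FPKM, and 28 had 0 counts. These sets were not matched in kind. The 171 include repeated genes such as PAU9, HMLALPHA1 and HMLALPHA2, at 0.662, 0.135 and 0.183 FPKM. What part shared sequence had in this difference was not tested. TEF2, TEF1, EFT2 and EFT1 were, in that order, the 4 highest of the 171, and the next was YER138W-A at 58.3 FPKM. Among the 137 cytosolic ribosomal protein genes, many of them in near-identical pairs, the 16 with 10% to under 50% unique windows had a median of 1135 FPKM. The 85 with at least 90% had a median of 2105 FPKM.

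If every count came from unique sequence, the level would be the count per unique window, and this was computed for windows of several lengths. TEF1 then had a mean of 13901 FPKM with 50-base windows and 5790.1 FPKM with 150-base windows, which placed it at rank 7 and rank 14. TEF2 had 20239.6 and 8430.4 FPKM, at ranks 4 and 8. EFT1 had 986 and 315 FPKM, at ranks 233 and 605, and EFT2 had 3835 and 1227 FPKM, at ranks 45 and 189. Every one of these values must lie above the whole-length level of its gene, since the length used is shorter. Counting windows that only touch the coding sequence gave lower values, which for 150 bases were 3078 FPKM for TEF1, 4481 for TEF2, 238 for EFT1 and 925 for EFT2. Dividing instead by the coding bases free of other genes and frames gave TEF1 3612 FPKM and TEF2 5259.8 FPKM. These frames were found by sequence search alone. No annotated gene overlapped TEF1 or TEF2, and no row without an annotation entry carried a name next to theirs. The files do not decide between the whole length and the unique-window lengths.

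**Figure D2:**
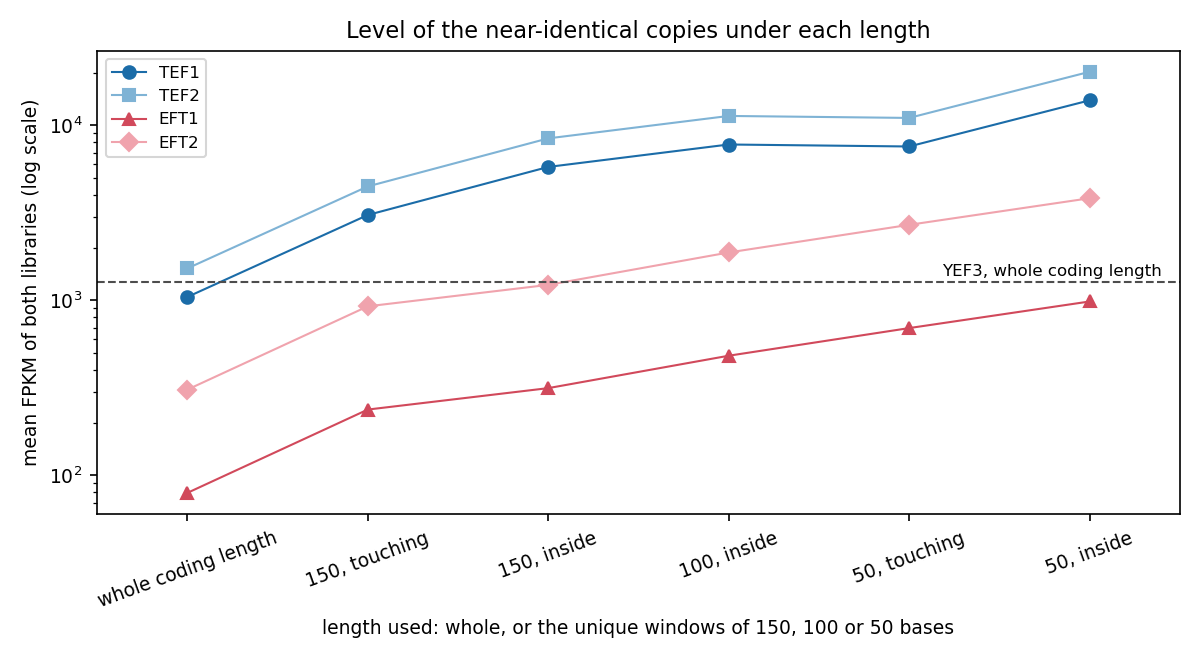
Mean FPKM of both libraries (y axis, log scale) of TEF1, TEF2, EFT1 and EFT2 when the count is divided by the whole coding length or by the number of unique windows (x axis; inside, windows within the coding sequence; touching, windows that overlap it by at least 1 base). The dashed line is YEF3 over its whole coding length. EFT2 crosses that line between the 150-base and the 100-base windows, and TEF1 crosses it with every unique-window length.

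Nucleotide exchange on eEF1A is carried out by EFB1 (YAL003W, chromosome I, 142174 to 143160, plus strand), the catalytic alpha subunit of eEF1B. It has 621 coding bases in 2 exons, and the snoRNA gene SNR18 lies within its intron at 142367 to 142468. EFB1 had 34574 and 32121 counts, or 1635 and 1462 FPKM (1549 ± 122, SD, n = 2), and all of its 50-base windows were unique. With rank 150 it was the highest of the 10 genes over whole coding lengths, but with unique windows in place of the length TEF1 and TEF2 lay above it at every window length, and EFT2 with 50-base and 100-base windows. Its values overlapped those of TEF2, so the order of these neighbours is not beyond the spread of the libraries. An opposite-strand reading frame of 101 codons covered 306 bases of the second exon.

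The gamma subunit of eEF1B comes from TEF4 (YKL081W, chromosome XI, 282891 to 284455, plus strand) and CAM1 (YPL048W, chromosome XVI, 464401 to 465648, plus strand). TEF4 holds an intron with the snoRNA gene SNR38 at 283185 to 283279, and CAM1 has no coding intron. The proteins were 64.5% identical over 417 aligned positions and the longest stretch common to the coding sequences was 35 bases, so no 50-base window was shared. TEF4 had 22583 and 18514 counts, or 535 and 422 FPKM (479 ± 79.7). CAM1 had 15405 and 14589 counts, or 362 and 331 FPKM (347 ± 22.6, SD, n = 2 each). TEF4 was the higher copy in both libraries without overlap, by 1.37-fold on average (log2 ratio 0.56 and 0.35, 0.46 ± 0.15). They ranked 393 and 557.

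The ATPase eEF3 is encoded by YEF3 (YLR249W, chromosome XII, 636780 to 639914, plus strand) and HEF3 (YNL014W, chromosome XIV, 606319 to 609453, plus strand), each with 1 exon of 3135 coding bases. The proteins of 1044 residues were 83.8% identical, the coding sequences 74.8%, and their longest shared run was 41 bases, too short for a 50-base window to match both. YEF3 had 144387 and 134209 counts, or 1353 and 1210.4 FPKM (1281 ± 100.5). HEF3 had 789 and 894 counts, or 7.39 and 8.06 FPKM (7.73 ± 0.475, SD, n = 2 each). YEF3 was 166-fold above HEF3 (log2 ratio 7.52 and 7.23, 7.37 ± 0.20), the widest gap of any pair with counts in both copies. YEF3 ranked 176 by FPKM and, since its coding sequence and that of HEF3 are the longest of the 10, 17 by CPM, the count scaled to the library total alone. HEF3 ranked 5369. HEF3 is known as a gene induced by zinc limitation in yeast, which was not examined here. Opposite-strand reading frames covered 321 and 453 bases of HEF3 and 345 bases of YEF3.

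**Figure D3:**
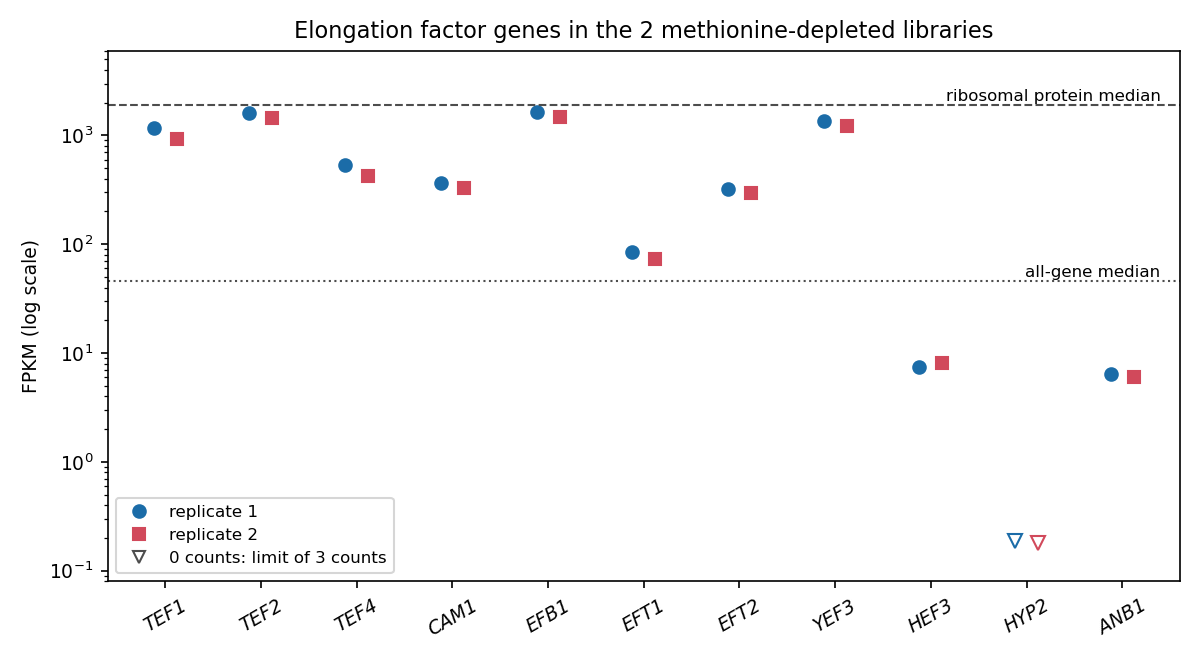
FPKM (y axis, log scale) of each elongation factor gene and of ANB1 in replicate 1 (circles) and replicate 2 (squares). Open triangles stand at the limit that 3 counts give for HYP2, which had 0 counts. The dashed line is the median of ribosomal protein genes, 1903 FPKM, and the dotted line the median of all genes, 45.9 FPKM. No gene of the 10 reached the dashed line, and HEF3 and HYP2 lay below the dotted one.

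eIF5A is encoded by HYP2 (YEL034W, chromosome V, 85676 to 86149, plus strand), the copy used in the presence of oxygen, and by ANB1 (YJR047C, chromosome X, 524908 to 525381, minus strand), which is repressed in oxygen through Rox1. Each has 474 coding bases in 1 exon and 157 codons. The proteins were 90.4% identical, the coding sequences differed at 43 positions, and all 50-base windows of each gene were unique. The longest stretch they share, 43 bases, is shown with the differing bases on either side in capitals, because a 50-base read of HYP2 could not be placed on ANB1 without a mismatch.
HYP2, positions 43 to 87, chrV:85718-85762, plus strand: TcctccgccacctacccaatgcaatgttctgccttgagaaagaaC
ANB1, positions 43 to 87, chrX:525295-525339, minus strand: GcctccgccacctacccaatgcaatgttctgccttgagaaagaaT

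HYP2 had 0 counts in both libraries, which allows levels of up to 0.186 and 0.179 FPKM at 3 counts. These limits and the shares above cover counting error only. ANB1 had 104 and 102 counts, or 6.44 and 6.08 FPKM (6.26 ± 0.254, SD, n = 2), at rank 5441. No ratio is given against a gene at 0. All 474 bases of HYP2 lay under an opposite-strand reading frame of 200 codons, from 85613 to 86215, so 0% of it was free of other genes and frames. A row named YEL034C-A, which by the naming convention sits beside HYP2 on the other strand and has no entry in the annotation used here, held 487 and 437 counts. No source used here gives the strand setting or what was done with reads that fall on more than 1 row, so reads of HYP2 and of a transcript on its opposite strand cannot be told apart.

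Genes wholly covered by other genes or frames, on either strand, were often at 0 in these files. This class is wider than genes under an opposite-strand frame, as HYP2 is. Of 32 genes with at least 90% unique windows and no base free of other genes or frames, 16 had 0 counts in both libraries (50.0%). Of 4162 such genes that were wholly free, 8 had 0 counts (0.192%). Of the 16, AI4, AI5_ALPHA, AI5_BETA and BI3 are mitochondrial, whereas SLM6 and ADF1 are nuclear. The wholly free mitochondrial genes ATP8 and VAR1 also had 0 counts. The nuclear gene GAL1 also had no free base, but had 240 and 249 counts in replicates 1 and 2. Neither share was computed for nuclear genes alone, or for opposite-strand frames alone. HYP2 also stood apart by codon use. The codon adaptation index, here the likeness of a gene's codons to those of ribosomal protein genes, was 0.838 for HYP2, above 99.3% of genes. Among the 301 genes in the top 5% by this index the median level was 1208 FPKM, and 6 had 0 counts. These were HYP2 and PAU1, PAU10, PAU14, PAU16 and PAU19, of a subtelomeric family of cell wall protein genes. In the PAU genes named here at most 27.9% of windows were unique. What part the opposite-strand frame had in the 0 counts of HYP2 was not tested.

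Most of the other members also had a high index, against a median of 0.790 for ribosomal protein genes. It was 0.879 for TEF1, 0.883 for TEF2, 0.829 for EFT1, 0.827 for EFT2, 0.812 for YEF3, 0.797 for EFB1 and 0.632 for TEF4, and these 7 with HYP2 lay in the top 5% of genes. CAM1, at 0.447 and above 94.1% of genes, lay just outside. HEF3 had 0.228, above 71.3% of genes, against a median of 0.197 over all genes. ANB1 had 0.747, above 97.7% of genes, at a level of 6.26 FPKM. Of the pairs, YEF3 and HEF3 were far apart in both index and level, whereas the copies of eEF1A and of eEF2 had nearly the same index and unequal levels.

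**Figure D4:**
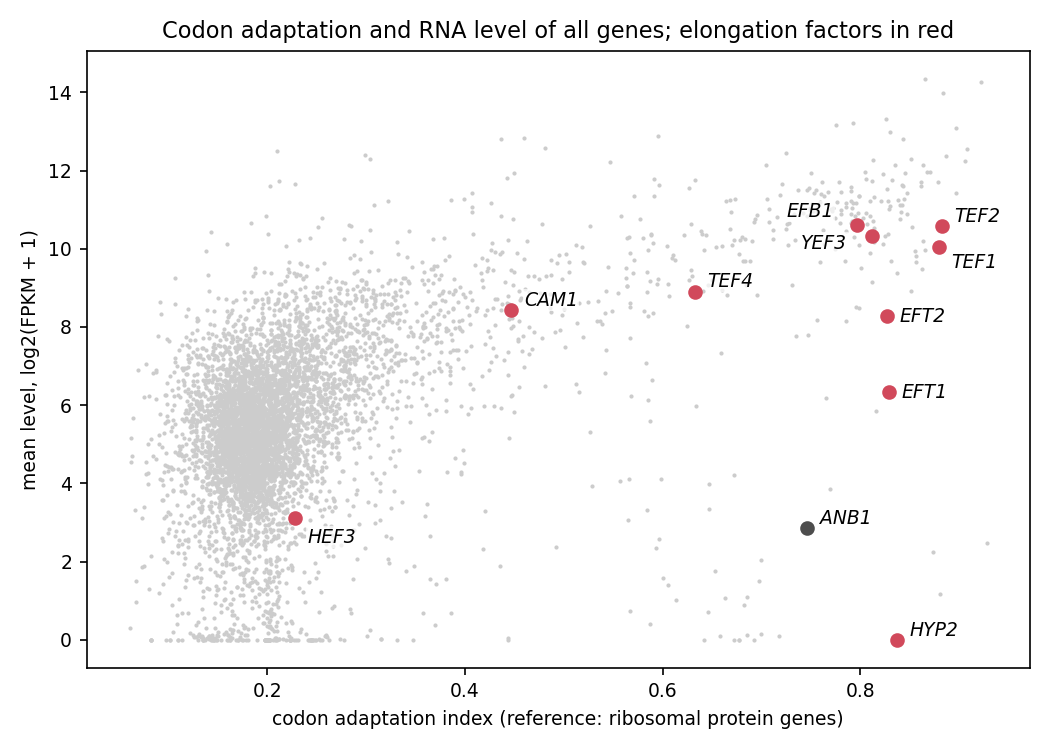
Codon adaptation index (x axis, ribosomal protein genes as reference) and mean log2(FPKM + 1) (y axis) of all genes (grey), the 10 elongation factor genes (red) and ANB1 (dark). EFT2, EFT1, ANB1 and HYP2 lie low in or below the grey cloud at indices between 0.747 and 0.838, and HEF3 lies within the low-index cloud.

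By mean FPKM over the whole coding length the order was EFB1, TEF2, YEF3, TEF1, TEF4, CAM1, EFT2, EFT1, HEF3 and HYP2. Neighbours in this order did not overlap between the libraries except EFB1 and TEF2, and the closest values of CAM1 and EFT2 were 331 and 323 FPKM. EFB1, TEF2, YEF3 and TEF1 were in the top 5% of genes, or 4 of 10 against 4.99% of all genes. At the ranks next to the highest copy of each factor, EFB1 and TEF2 stood beside each other, and the other neighbours were not elongation factor genes. HXK1, a hexokinase, was just below TEF2 at 1520.0 ± 494 FPKM, and YNL208W was just above EFB1 at 1559 ± 60.4. RPS19A, a ribosomal protein gene, at 1284 ± 30.4 FPKM and the glucose transporter gene HXT3 at 1268 ± 150.3 flanked YEF3. The amino acid synthesis genes ARO2, at 479 ± 4.63 FPKM, and HIS1, at 479 ± 61.5, flanked TEF4. KTR1, a mannosyltransferase gene, at 309.9 ± 11.8 and YGR161W-C at 308 ± 3.37 flanked EFT2, and RMA1 at 6.29 ± 0.477 and ARP10 at 6.25 ± 0.835 flanked ANB1 (SD, n = 2 throughout). Each of these values lay within the spread of the factor gene beside it.

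Summed over copies, eEF1A had 2776 and 2365 FPKM in the libraries (2571 ± 291), eEF3 1360 and 1218 (1289 ± 100.0), eEF1B gamma 898 and 753 (825 ± 102) and eEF2 409 and 369 (389 ± 28.5, SD, n = 2 each). A sum is not affected by how reads are dealt between copies, but it still lacks reads that were dropped from both. Relative to the median ribosomal protein gene, which had 1970.1 and 1821 FPKM, eEF1A stood at 1.35 ± 0.0780, eEF1B alpha at 0.817 ± 0.0190, eEF3 at 0.680 ± 0.0150, eEF1B gamma at 0.435 ± 0.0298 and eEF2 at 0.205 ± 0.00364. Apart from eEF1B alpha, these set a sum over copies against single ribosomal protein genes, which were not summed over their own copies. Taken singly by mean FPKM, TEF1 stood at 0.550 and TEF2 at 0.801 of that median. The ratio of eEF1A to its exchange factor eEF1B alpha was 1.66 ± 0.0570, and that of eEF1B alpha to eEF1B gamma, subunits of 1 complex, was 1.88 ± 0.0855. eEF3 was 3.32 ± 0.0142 times eEF2 over whole coding lengths. This order depended on the length used. With unique 50-base windows, eEF2 had 4821 FPKM and eEF3 1289, and with 150-base windows that touch the coding sequence eEF2 had 1163.

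Replicate 2 was lower than replicate 1 for most of the 10 genes. Of the 9 with at least 10 counts in both libraries, 8 were lower on the log2(FPKM + 1) scale, against 58.1% of 5793 genes. TEF1 (-0.31) and TEF4 (-0.34) were lower in replicate 2 by over 1.2-fold, or 2 of 9 against 10.7% of those genes. HEF3 was the exception, at 0.11. The median difference of the 9 genes was -0.16, that of the 5793 genes -0.03 (25th to 75th percentile -0.13 to 0.08) and that of ribosomal protein genes -0.11, with 129 of 137 lower. With TMM scaling of the libraries 8 of 9 were again lower, against 50.1% of all genes, and with DESeq2 scaling 8 of 9, against 49.7%. Only 2 libraries were made, so this is a difference between them, with no test.

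Genes that act on or beside the elongation factors were mostly far lower. The 10 factor genes, HYP2 taken at 0, had a median of 413 FPKM. The 7 methyltransferase genes that modify eEF1A, eEF2 or eEF3 had a median of 28.0 FPKM, 3 of them above the median of all genes, with values from 18.7 ± 5.38 for EFM2 to 113 ± 3.84 for EFM5. The 7 genes of diphthamide synthesis, the modification of a histidine of eEF2, had a median of 37.0 FPKM, 2 above. The highest was DPH5, the methyltransferase of the pathway, at 214 ± 16.5, and the lowest JJJ3, which encodes a J-domain protein, at 4.79 ± 1.23. The enzymes that make hypusine on eIF5A were higher. DYS1, deoxyhypusine synthase, had 178 ± 6.88 FPKM and LIA1, deoxyhypusine hydroxylase, 257 ± 37.0 (SD, n = 2 each).

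In termination and ribosome rescue, 6 of 7 genes lay above the median of all genes, with a list median of 56.4 FPKM. SUP45, the release factor eRF1, had 317 ± 22.3 FPKM, and SKI7, which links the exosome to the Ski complex, 23.4 ± 0.363. Among 6 relatives or partners of elongation factors with other roles, the median was 73.2 FPKM and 4 lay above that of all genes. ARB1, an ABC ATPase of ribosome biogenesis, had 205 ± 26.4 FPKM and SNU114, an eEF2-like GTPase of the spliceosome, 23.5 ± 0.415. The 4 mitochondrial factors had a median of 32.4 FPKM, 2 above, with TUF1, the mitochondrial EF-Tu, at 260 ± 20.5 and GUF1 at 10.7 ± 0.103 (SD, n = 2 each).

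**Figure D5:**
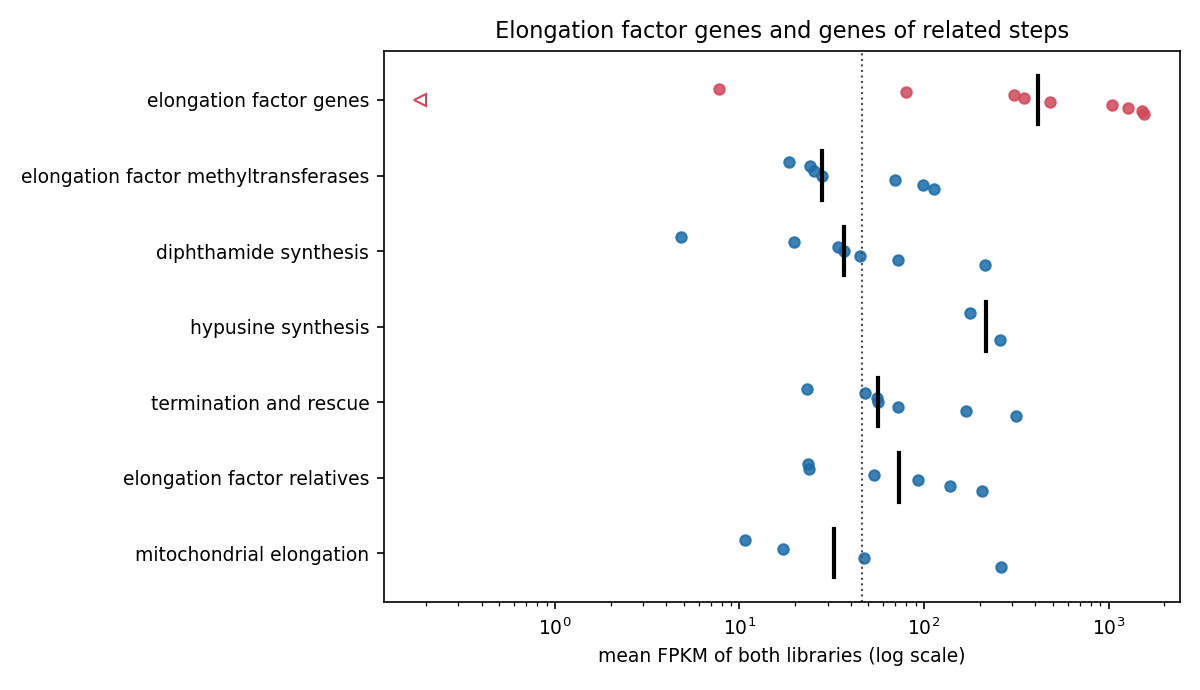
Mean FPKM of both libraries (x axis, log scale) of the 10 elongation factor genes (red, with HYP2 as an open triangle at its limit in replicate 1) and of the genes in related lists (blue). Points are genes, offset vertically for clarity, black bars are medians, and the dotted line is the median of all genes. The elongation factor median, 413 FPKM, lies right of all the others, of which hypusine synthesis is the highest at 218 FPKM.

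The stretch from 250 bases before to 50 bases after each start codon was searched on both strands in 5987 genes. The TATA motif TATAAA was found for TEF2 and YEF3, at 125 bases before the start codon in both, and inside the coding sequence on the other strand for TEF4 and CAM1, so in 4 of 10 against 45.2% of all genes. The Reb1 motif TTACCCG was found for EFT1 only, 198 bases before the start codon on the other strand, against 7.10% of all genes. Matches were to the exact letters within this stretch, so a gene with none may still hold a site of that factor. A Rap1-like motif, ACCCNNACA, was in 2.84% of all genes, in 12 of 137 ribosomal protein genes and in none of the 10. TATATAAG (5.24%), which shares the letters TATAA with TATAAA, GACGCAAA (1.64%), the Cbf1 motif CACGTG (2.91%), the Met31 and Met32 motif AAACTGTGG (0.418%) and the Gcn4 motif TGACTC (8.001%) were likewise in none. The Rox1 motif ATTGTTCTC, present in 0.718% of genes, was in none of the 10 and was found for ANB1, 214 bases before its start codon. It is shown in capitals because ANB1 is a known Rox1 target.
ANB1, 224 to 196 bases before the start codon, chrX:525577-525605, minus strand: ttcctattccATTGTTCTCtttggtaaac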

How the data were processed

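The deposited values are whole-number counts per gene and library, although the authors name them FPKM. The submitters' processing notes name featureCounts 2.0.3 and the sacCer3 build. No source used here gives the strand setting, the treatment of reads with several matches, or the unit (read or pair) behind a count. The general software list of the study has BWA as aligner, with fastp and Picard MarkDuplicates, while the section on RNA names no aligner. FPKM was computed here from the deposited counts, the coding length in the RefSeq R64 annotation and the library total. Of 6692 rows, 685 had no coding length there (0.281% and 0.292% of counts) and entered the totals only. Over 5793 genes of at least 10 counts, the chi-square of the libraries averaged 60.7 per gene, where counting error alone gives about 1, so the files do not hold the same library. The study calls its samples biologically independent.

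There is 1 group of 2 libraries, so no test and no p-value is given. Values are means ± SD. Unique windows, overlaps with other genes or frames (100 codons or longer), codon adaptation and motifs were computed from R64 (Python 3.11.15, Biopython 1.88), and the scripts were tested on simulated data. TMM factors came from edgeR 4.0.16 and size factors from DESeq2 1.42.0 (R 4.3.3). Shares have 95% Wilson intervals and limits at 0 use 3 counts. The members, the related lists and the motifs were chosen with earlier results of these data known. The text names all members, ANB1, genes overlapping members, the highest and lowest of each related list, and the genes ranked beside the highest copy of each factor. Genes named outside this rule (YER138W-A, the PAU genes, HMLALPHA1, HMLALPHA2, SLM6, ADF1, GAL1 and the mitochondrial genes at 0 counts) were chosen after their values were seen. Alternatives were other scalings, other lengths, each library alone, and other ranks and pseudocounts.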

Additional observations from a re-analysis of the deposited data

Results flagged for a closer look

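The row YEL034C-A is outside the elongation factor genes and has no entry in the annotation used here. Only its name places it by HYP2 on the other strand. It held 487 and 437 counts in replicates 1 and 2, a mean of 462, above the limit of 3 counts, while HYP2 had 0 counts in both. Whether these reads came from HYP2 transcripts was not tested.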

How the results depend on the processing

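With TMM or DESeq2 scaling, the 5 ratios to ribosomal protein genes and the 4 paralog ratios kept their values, since scaling cancels within a library, and 8 members were again lower in replicate 2. With either library alone, the 9 ratios moved by less than the spread between libraries and 4 members were again in the top 5%, or 5 when ranked by CPM in both. With 2 libraries, leaving 1 out cannot move a mean of both by more than that. The length used did move the ratios to the median ribosomal protein gene. For eEF1A (1.35) the ratio became 14.3, 9.07 and 7.19 with unique windows of 50, 100 and 150 bases, 4.49 with the length free of other genes and frames, and 8.21 and 3.91 with windows of 50 and 150 bases that touch the gene. For eEF2 (0.205) these values were 2.01, 1.12, 0.781, 0.197, 1.501 and 0.603 in the same order. For eEF1B alpha (0.817) they were 0.647, 0.736 and 0.784, then 1.55 and, for touching 50-base windows, 0.684. For eEF3 (0.680) they were 0.539, 0.613 and 0.652, then 0.734 and 0.570. For eEF1B gamma (0.435) unique windows of 50 and 100 bases gave 0.345 and 0.392, and touching 50-base windows 0.364. EFB1, TEF4, CAM1 and the eEF3 genes hold unique sequence throughout, so under the window lengths their ratios moved through the ribosomal protein median alone. The log2 ratio of YEF3 to HEF3 (7.37) was 7.13 with the free length. Without genes that hold shared sequence or overlap, the median of the mitochondrial list (32.4 FPKM) was 135 FPKM, since only TUF1 and GUF1 remained. HYP2 has no free length and gave no value. The touching windows were chosen after seeing the data. No paired analysis was possible because there is 1 group of 2 libraries. Depth does not limit the 9 genes with counts, which had 789 or more in each library.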
